A study of Mus musculus with 3 samples.

Results

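Transcripts of 9 inflammatory and tissue-homing chemokine receptor genes were measured in CD4-positive effector memory T cells: Cxcr3, Cxcr6, Ccr2, Ccr6, Ccr8, Cx3cr1, Ccr4, Ccr9 and Ccr1. The genes were taken by their symbols in the GENCODE M21 annotation, by a rule that holds no measured value, although earlier results of these data were known when the set was drawn up, and all 9 were found among the 55536 annotated genes of the deposited tables. The cells were primary alpha-beta T cells of 1 adult male C57BL/6J mouse aged 7 months, and no gene alteration or treatment is named in the labels. RNA of these cells gave 3 polyA libraries, numbered as technical replicates 1, 2 and 3 of a single biological replicate. They form 1 group, so the data hold no second condition, and spreads and p-values below describe technical variation within 1 mouse. How the cells were sorted is not given in the sources used here.

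Chemokine receptors are G protein-coupled receptors with a bundle of membrane-spanning helices. When a chemokine binds, they act mainly through inhibitory G proteins to turn on integrins and to steer the actin skeleton, so that the cell stops on the vessel wall and moves up the chemokine gradient. Naive and central memory T cells rely on receptors for lymph node chemokines. Effector and memory T cells gain receptors for chemokines made in inflamed or barrier tissue, and different helper subsets are known for different sets of them. The receptors described here include those for interferon-induced chemokines (Cxcr3), for ligands of the epithelium and of inflamed tissue (Cxcr6, Ccr6, Ccr9), for monocyte chemoattractants (Ccr2), and for chemokines linked to type 2 responses and to skin (Ccr4, Ccr8).

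The libraries held 16251564, 14878641 and 14152590 estimated counts. The labelled cell type was checked against defining markers: all 5 T cell markers stood above 100 TPM in every library, among them Cd4 at 476 ± 4.74 and Trac at 3271 ± 341 TPM (SD, n = 3 libraries). TPM is a transcript level scaled by transcript length and by the total of the library, so that genes can be set side by side. Of other lineages, Cd8a had 3 counts in all, Cd8b1 stood at 4.16 ± 0.887 TPM, Trdc had 0 counts, and the summed markers lay between 0.860 and 1.32 TPM for B cells, 0.850 and 0.960 TPM for dendritic cells, 0.240 and 0.870 TPM for neutrophils, 0.220 and 0.360 TPM for mast cells, basophils and eosinophils, and 0 and 0.610 TPM for platelets. Of 8 monocyte and macrophage markers, 1 reached 1 TPM in every library. This was Ly6c2, at 1326 ± 199 TPM, a gene that memory T cells also express. The other 7 had mean levels of 0.510 TPM or less, with Fcgr1 at 0 counts. Of 4 natural killer markers, Klrb1c stood at 19.0, 21.5 and 13.3 TPM and Klre1 at 1.18 ± 0.0451 TPM, with Ncr1 at 0.107 TPM and Klra8 at 0 counts.

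The 9 receptors spanned a wide range of levels. Cxcr3 and Cxcr6 stood above 200 TPM, Ccr2 near 30 TPM, Ccr6 and Ccr8 near 5 TPM, and Cx3cr1, Ccr4, Ccr9 and Ccr1 at or below about 1 TPM. In bulk RNA, a gene carried by few cells and a gene carried at a low level by many cells cannot be told apart. Of the 9 genes, 5 reached 1 TPM in every library, where 45.5% of 22028 protein-coding genes did. The summed level of the 9 was 589, 665 and 571 TPM in libraries 1, 2 and 3, or 608 ± 49.9 TPM. Cxcr3 and Cxcr6 together took 92.8% ± 0.479 of it, and with Ccr2 the share was 97.9% ± 0.672.

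**Figure D1:**
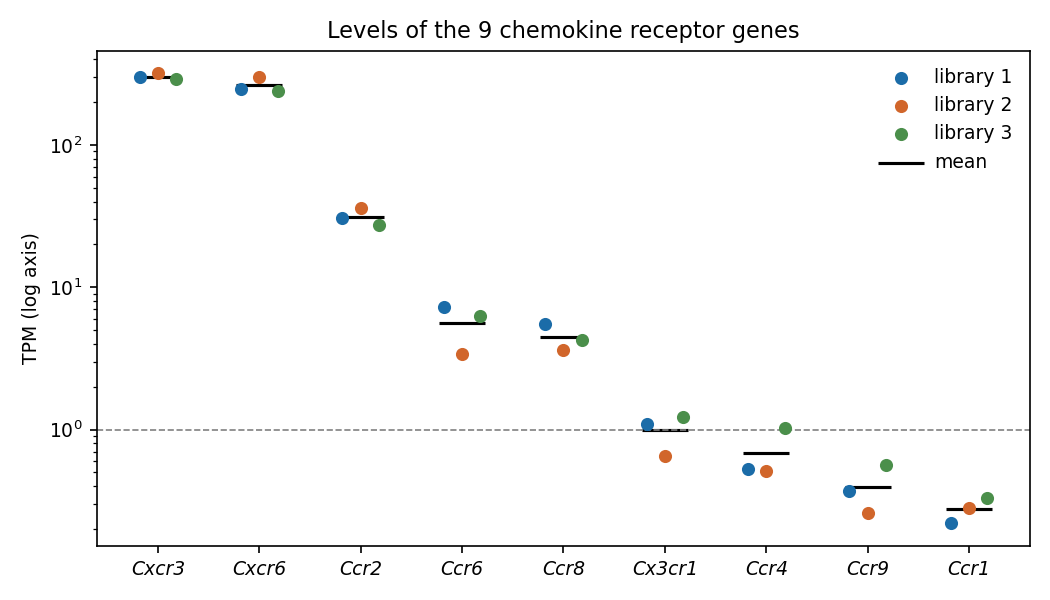
TPM (log axis) of the 9 receptor genes, 1 point per library with a bar at the mean of the 3 libraries and a dashed line at 1 TPM. Cxcr3 and Cxcr6 lie above 200 TPM in every library, Ccr2 lies between 27.41 and 36.17 TPM, and Ccr4, Ccr9 and Ccr1 have means below 1 TPM.

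Cxcr3, the receptor for the interferon-induced chemokines CXCL9, CXCL10 and CXCL11 and a known mark of type 1 helper cells, was the highest of the 9. Its gene (ENSMUSG00000050232.6) lies on the reverse strand of chromosome X from 101731535 to 101734269 on GRCm38/mm10 and has 1 annotated transcript. The levels were 298, 319 and 290 TPM, with a mean of 302 ± 14.9 TPM, from estimated counts of 4992, 4748 and 4292. Library 2 was the highest and library 3 the lowest, and the SD was 4.93% of the mean. The mean put Cxcr3 at rank 463 of the protein-coding genes, the 97.9th percentile.

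Cxcr6 came next. It encodes the receptor for CXCL16, a chemokine made both in soluble form and tethered to the surface of cells, and is known for its presence on T cells lodged in tissues. The gene (ENSMUSG00000048521.8, chromosome 9, 123806475 to 123811760, forward strand) was measured at 246, 301 and 239 TPM, or 262 ± 33.8 TPM, from 4531, 4929 and 3894 counts. It ranked 553 among protein-coding genes. Cxcr3 was above Cxcr6 in each of the 3 libraries, by 1.21, 1.06 and 1.21 times, a ratio of 1.16 ± 0.0879, although the ranges of the 2 genes overlapped when libraries were pooled.

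The gene Cxcr6 lies inside the span of Fyco1, a gene for a protein that carries autophagosomes along microtubules and that is read from the opposite strand. None of the 1931 exonic bases of Cxcr6 are shared with a Fyco1 exon (0 shared bases), and Fyco1 itself measured 27.4, 23.1 and 23.5 TPM. Ccr9, the next receptor gene toward lower coordinates, lies 22.1 kb away and was below 1 TPM in all 3 libraries.

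Ccr2, the receptor for monocyte chemoattractants such as CCL2, is best known from inflammatory monocytes and is also found on effector and memory T cells. The gene (ENSMUSG00000049103.14, chromosome 9, 124101950 to 124113557, forward strand) gave 30.44, 36.17 and 27.41 TPM, or 31.3 ± 4.45 TPM, from 970.75, 1012.87 and 753.56 counts. That level is at the 78.7th percentile of protein-coding genes. Cxcr6 exceeded it by 8.08, 8.32 and 8.73 times, a ratio of 8.38 ± 0.332, and Cxcr3 exceeded it by 9.73 ± 0.885 times, with no overlap of the ranges. Libraries 1, 2 and 3 took the same order for Ccr2 as for Cxcr6, with library 2 highest and library 3 lowest. Because Ccr2 is also a monocyte gene, its level is set beside those markers: 7 of the 8 monocyte and macrophage markers, Lyz2 (0.317 ± 0.0451 TPM) and Csf1r (0.360 ± 0.296 TPM) among them, were at or below 0.510 TPM on average.

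Ccr6 and Ccr8 formed the next step. Ccr6, the receptor for CCL20 and a known mark of type 17 helper cells, lies on the forward strand of chromosome 17 (ENSMUSG00000040899.14, 8236043 to 8257141). It measured 7.22, 3.38 and 6.25 TPM, or 5.62 ± 2.00 TPM, from 85, 27 and 64 counts. Library 2 was far below the others, and exact Poisson 95% intervals of the counts were 67.9 to 105, 17.8 to 39.3 and 49.3 to 81.7. These intervals, here and below, cover counting error only. Ccr2 exceeded Ccr6 by 4.22, 10.7 and 4.39 times, with no overlap of their ranges.

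Ccr8, a receptor for CCL1 that is known from type 2 helper and regulatory T cells, stood at 5.53, 3.61 and 4.24 TPM, or 4.46 ± 0.979 TPM, from 62, 36 and 42 counts. Its gene (ENSMUSG00000042262.5, chromosome 9, 120092114 to 120094906, forward strand) has 1 annotated transcript. The ranges of Ccr6 and Ccr8 overlapped, and the order held in 2 of 3 libraries, with Ccr8 above Ccr6 in library 2. The levels of these 2 genes did not differ beyond their spread. Of the regulatory T cell markers, Foxp3 had 0, 3 and 0 counts, while Il2ra and Ikzf2, which other activated T cells can carry, stood at 22.0 ± 0.643 and 5.10 ± 1.19 TPM.

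The remaining 4 genes had mean levels below 1 TPM, from 6 to 43 counts per library. Cx3cr1, the receptor for the membrane-bound chemokine fractalkine and known from monocytes, natural killer cells and cytotoxic effector T cells, gave 1.10, 0.65 and 1.22 TPM, or 0.990 ± 0.300 TPM, from 39, 18 and 43 counts (ENSMUSG00000052336.7, chromosome 9, 119901616 to 120069879, reverse strand). Ccr8 exceeded it by 4.69 ± 1.08 times, with no overlap. Ccr4, the receptor for CCL17 and CCL22 and known from skin-homing and type 2 cells, gave 0.53, 0.51 and 1.02 TPM, or 0.687 ± 0.289 TPM, from 8, 6 and 12 counts (ENSMUSG00000047898.7, chromosome 9, 114490316 to 114504916, reverse strand).

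Ccr9, the receptor for CCL25 that directs T cells to the small intestine and is also carried by thymocytes, gave 0.37, 0.26 and 0.56 TPM, or 0.397 ± 0.152 TPM, from 19, 6 and 23 counts (ENSMUSG00000029530.16, chromosome 9, 123678439 to 123784330, forward strand). Ccr1, a receptor shared by CCL3, CCL5 and other inflammatory chemokines and known mostly from myeloid cells, was the lowest at 0.22, 0.28 and 0.33 TPM, or 0.277 ± 0.0551 TPM, from 6, 7 and 8 counts (ENSMUSG00000025804.5, chromosome 9, 123962124 to 123968692, reverse strand). The exact interval of its 6 counts in library 1 ran from 2.20 to 13.1, against the 3 counts that a count of 0 allows. From Cx3cr1 down, each gene overlapped its neighbour in the order, so that the order of neighbours cannot be read at this depth. Cx3cr1 lay above Ccr9 and Ccr1 with no overlap of the ranges. Ccr9 exceeded Ccr1 in only 2 of 3 libraries.

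Against the rest of the receptor family, the highest 2 genes of the set were also the highest by mean level among these and 13 other chemokine receptor genes. Of 13 other chemokine receptors, 5 reached 1 TPM in every library and 2 had 0 counts in every library (Cxcr1 and the atypical receptor Ackr2). Their median was 0.450 ± 0.197 TPM, beside 4.38 ± 1.08 TPM for the 9 genes and 0.720 ± 0.131 TPM for all protein-coding genes. The lymph node receptor Ccr7 stood at 239 ± 10.2 TPM, with 243, 246 and 227 TPM in libraries 1, 2 and 3. It was below both Cxcr3 and Cxcr6 in every library, although its range overlapped that of Cxcr6 when libraries were pooled. The follicle-homing receptor Cxcr5 stood at 213 ± 3.34 TPM, also below both Cxcr3 and Cxcr6 in every library. Cxcr4, the receptor for the stromal chemokine CXCL12, was at 77.2 ± 11.7 TPM.

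**Figure D2:**
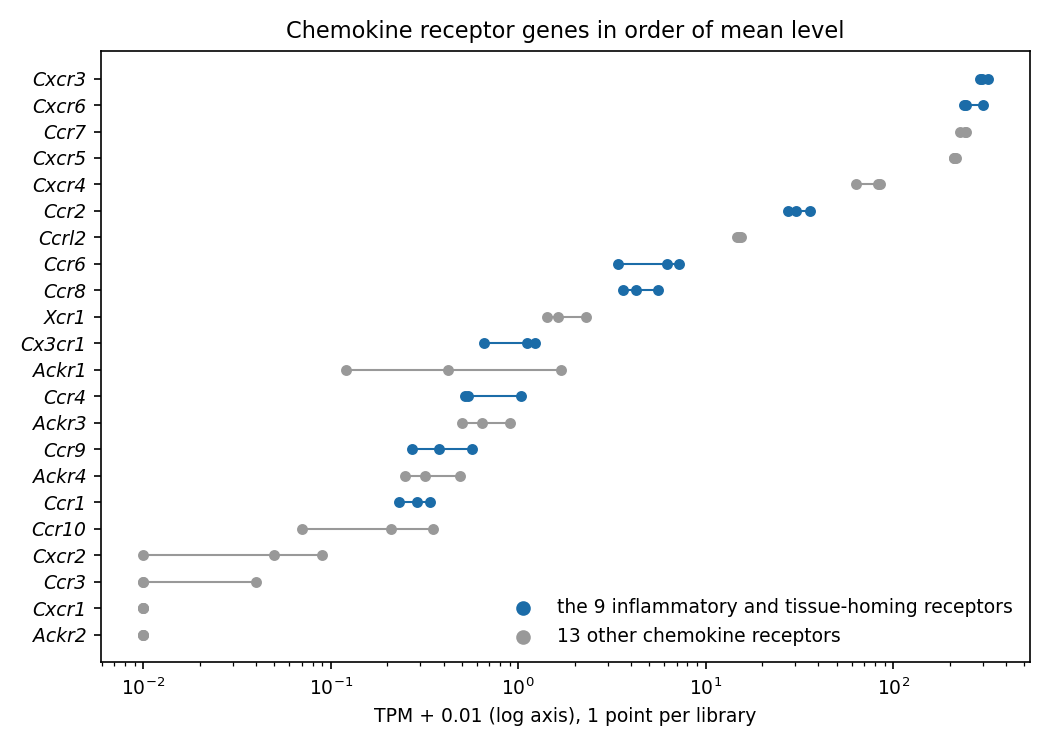
TPM plus 0.01 (log axis) of the 9 receptor genes in blue and 13 other chemokine receptor genes in grey, 1 point per library joined by a line, in order of the mean. Cxcr3 and Cxcr6 head the order above Ccr7 and Cxcr5, and Ccr1 stands near Ccr10 among the genes below 1 TPM.

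The most abundant receptor gene after Cxcr3 had 2 annotated forms, and both were given reads. The forms are named here by their acceptor. They share the splice donor at the end of exon 1 (chromosome 9, position 123806545) and differ in the acceptor of exon 2, at 123809931 in the downstream-acceptor form (ENSMUST00000049810.8) and at 123809901 in the upstream-acceptor form (ENSMUST00000216072.1). The lines below give the last 12 bases of exon 1 and the start of exon 2 of each, from the GENCODE M21 transcripts (GRCm38, forward strand), and are shown because this junction sets the coding difference between the forms, whose outer ends also differ. The capitals mark the 30 bases that the upstream acceptor adds.
Cxcr6, downstream acceptor: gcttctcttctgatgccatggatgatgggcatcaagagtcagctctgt
Cxcr6, upstream acceptor: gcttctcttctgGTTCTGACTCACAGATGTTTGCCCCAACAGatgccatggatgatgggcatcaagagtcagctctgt
In the upstream-acceptor form the annotated start codon lies in the added bases, after the first 14 of them, so that this form adds 21 coding bases, or 7 codons, ahead of the start codon used in the downstream-acceptor form. The coding sequence is 358 codons long in the upstream-acceptor form and 351 in the downstream-acceptor form.

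The downstream-acceptor form took 65.9%, 68.3% and 82.6% of the gene's TPM in libraries 1, 2 and 3, or 72.3% ± 9.01, and the upstream-acceptor form took 34.1%, 31.7% and 17.4%, or 27.7% ± 9.01. The downstream-acceptor form was the leading form in each library, and library 3 stood apart from the other 2. The estimated counts of the upstream-acceptor form were 1549.32, 1566.72 and 680.56, with deposited posterior standard deviations of 297.67, 416.7 and 323.87 counts. The assignment of reads to forms was therefore uncertain by that many counts, while the summed gene count carried no such uncertainty (0%).

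Ccr2 had 4 annotated transcripts, and each was given reads in every library. The single-exon transcript ENSMUST00000165984.2, which starts 48 bases before the coding exon of the 3-exon transcript ENSMUST00000055918.6 and 3.44 kb after its start, took 52.9%, 48.3% and 39.1% of the TPM of the gene. The 3-exon transcript took 22.3%, 28.1% and 40.3%, ENSMUST00000171719.7 took 18.9% ± 1.67 and ENSMUST00000168841.2 took 4.11% ± 0.544. The single-exon form led in libraries 1 and 2 by TPM. In library 3 the forms could not be ordered: the 3-exon form was the higher by TPM (11.04 against 10.72), the single-exon form by estimated count (326.76 against 286.47), and the posterior standard deviations were 40.28 counts for the single-exon and 42.64 for the 3-exon form. The 4 transcripts encode 1 and the same coding sequence of 1119 bases, so that the forms differ in their untranslated parts only. The posterior standard deviation of the count of the single-exon form was 46.52, 51.46 and 40.28 on counts of 555.3, 536.08 and 326.76.

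**Figure D3:**
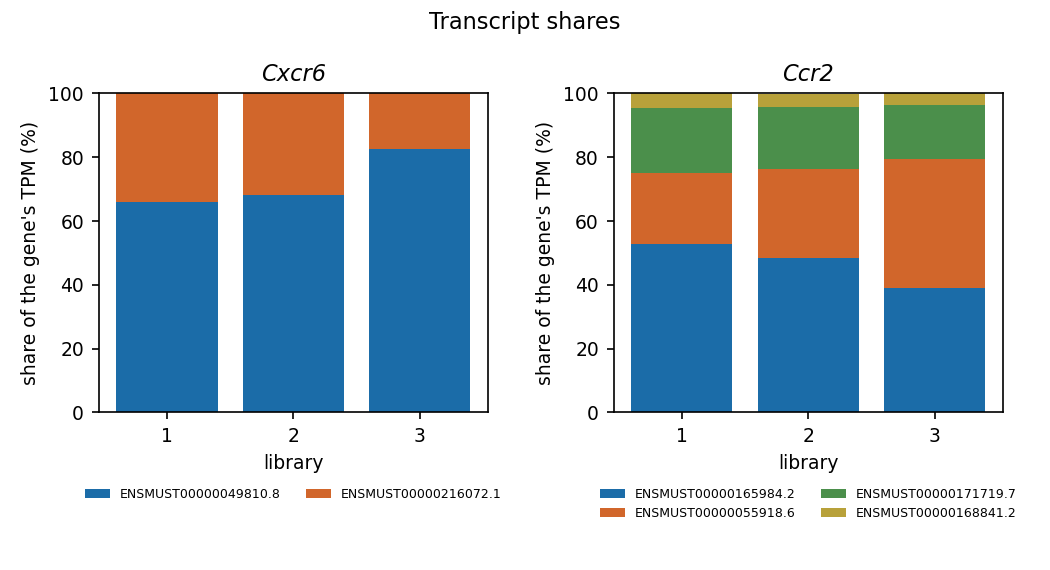
Share of the gene's TPM (percent) taken by each annotated transcript of Cxcr6 and Ccr2, 1 stacked bar per library. The downstream-acceptor form of Cxcr6 (blue) takes more than the upstream-acceptor form (orange) in all 3 libraries, and the single-exon form of Ccr2 (blue) takes more than the 3-exon form (orange) in libraries 1 and 2 and about as much in library 3.

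Over all 9 genes, 20 of 30 annotated transcripts were given reads in some library. Forms of the low genes switched between libraries. The share of the Cx3cr1 transcript ENSMUST00000177637.1 was 66.0%, 100% and 31.4%, that of the Ccr6 transcript ENSMUST00000177568.8 was 41.4%, 0% and 78.5%, and the Ccr9 transcript ENSMUST00000166236.8 was given 100%, 0% and 77.6%. With 6 to 85 counts per library behind these genes, their forms were not resolved. For Ccr4, ENSMUST00000215425.1 was given 86.5%, 100% and 100% of the TPM from 26 counts in all.

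A stretch of coding sequence that the receptors share is the motif at the inner end of the third membrane helix, through which such receptors couple to G proteins and which usually reads aspartate, arginine, tyrosine. CXCR6 is known for a phenylalanine in place of the tyrosine. The lines below give 21 coding bases from the annotated transcripts with the codons of this motif in capitals, for the 3 highest genes and for Ccr1, the closest relative of Ccr2 in the set.
Cxcr3: GACAGATATctgagcatagtg
Cxcr6: GATCGTTTCattgtagtggtc
Ccr2: GATAGGTACttggctattgtt
Ccr1: GACAGATACctggccattgtc
The stretches begin at coding base 439 of Cxcr3, 403 of Cxcr6 (downstream-acceptor form), 448 of Ccr2 and 388 of Ccr1.

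Coding lengths of the 9 genes ran from 1053 bases in Cxcr6 to 1119 in Ccr2. Over their 36 pairs, the identity of aligned coding bases had a median of 63.1% and was highest between Ccr1 and Ccr2 at 67.7%. The longest run of identical bases was 21, between Ccr8 and Cx3cr1, against library fragments of 100 to 300 bases. The deposited assignment uncertainty of the gene counts was 0% for 7 of the genes, at most 0.322% for Ccr2 and at most 12.3% for Ccr9.

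On chromosome 9 lie 7 of the 9 genes, and neighbours there differed widely in level. Cx3cr1 and Ccr8 are 22.2 kb apart and stood at 0.990 and 4.46 TPM. Ccr9 and Cxcr6, 22.1 kb apart, stood at 0.397 and 262 TPM. Ccr1 lies 150 kb beyond Cxcr6 and 133 kb before Ccr2, and its level of 0.277 TPM was the lowest of the 9. Xcr1, the receptor of cross-presenting dendritic cells and the next gene at higher coordinates than Cxcr6, measured 1.77 ± 0.450 TPM, and Ccr3, the eosinophil receptor and the next gene at lower coordinates than Ccr2, had 1 count in all.

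Sequence before the start of 3 of these genes is shown because they combine the extremes of level, with Cxcr6 and Ccr1, which lie 150 kb apart, near opposite ends. The sequences are from RefSeq (GRCm38.p6), read 5′ to 3′ on the strand of the gene and ending at the last base before the first annotated transcribed base. They cover chrX:101734270-101734397 (reverse strand) for Cxcr3, chr9:123806227-123806474 (forward strand) for Cxcr6 and chr9:123968693-123968942 (reverse strand) for Ccr1. Capitals mark matches, on either strand, to motif cores of the RUNX (TGTGGT) and ETS (AGGAAG) families, transcription factors widely used in lymphocytes.
Cxcr3: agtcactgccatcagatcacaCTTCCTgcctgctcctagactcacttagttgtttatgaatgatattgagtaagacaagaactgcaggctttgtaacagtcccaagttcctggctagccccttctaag
Cxcr6: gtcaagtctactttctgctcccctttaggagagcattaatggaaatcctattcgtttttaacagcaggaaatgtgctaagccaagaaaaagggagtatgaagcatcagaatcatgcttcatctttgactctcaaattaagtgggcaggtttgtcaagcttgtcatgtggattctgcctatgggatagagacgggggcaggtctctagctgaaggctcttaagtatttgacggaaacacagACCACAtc
Ccr1: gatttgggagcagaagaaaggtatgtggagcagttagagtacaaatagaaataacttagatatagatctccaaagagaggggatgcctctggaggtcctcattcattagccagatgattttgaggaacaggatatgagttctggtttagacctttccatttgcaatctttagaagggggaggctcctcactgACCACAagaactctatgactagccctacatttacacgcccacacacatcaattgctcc
A match to the RUNX core stood in the sequences of both Cxcr6 and Ccr1, at 262 and 0.277 TPM.

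Cores of the T-box, RUNX, AP-1, ETS, GATA and STAT families were searched on both strands in the 10 RefSeq start windows of the 9 genes, each with 250 bases before and 50 after the start. The windows of all genes, 32851 in number, gave the share to compare. The RUNX core TGTGGT was in 5 of 10 windows (Ccr1, Ccr6, Cx3cr1, Cxcr3 and Cxcr6) and in 16.8% of all windows. The ETS core AGGAAG was in 5 (Ccr4, Ccr6, Ccr8, Ccr9 and Cxcr3) and in 35.4% of all. In the Cxcr3 window, the RUNX matches at bases 141 and 262 and an ETS match at base 236 lie past the 128 bases printed above. Those matches therefore fall after the first annotated transcribed base of Cxcr3. The GATA core AGATAA was in 3 (Ccr2, Ccr6 and Ccr8) and in 11.2% of all, the AP-1 core TGANTCA in 1 (Ccr4) and in 7.81%, and the STAT core TTCNNNGAA in 1 (Ccr6) and in 8.30%. The T-box core AGGTGT was in 0 of the 10 and in 13.7% of all. These are matches of letters in short windows, and none was tested as a binding site.

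Agreement between the 3 libraries was measured with a chi-square test per gene against counting noise, on genes with at least 30 counts in all. Of the 9 genes, 7 were tested and 6 differed between libraries at an adjusted p under 0.05, where 54.7% of all genes tested did. The other 2, Ccr4 and Ccr1, had 26 and 21 counts and were not tested. Cxcr6 had the smallest adjusted p, 7.99e-22, with 280, 332 and 274 CPM (counts scaled to a common library total by edgeR's TMM method), a ratio of highest to lowest of 1.21. For Ccr2 the values were 59.9, 68.3 and 53.0 CPM (adjusted p = 4.99e-06), and for Cxcr3 308, 320 and 302 CPM (adjusted p = 0.0323).

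Among the lower genes, Ccr6 had 5.25, 1.82 and 4.50 CPM, a ratio of 2.88 (adjusted p = 1.79e-05). Cx3cr1 had a ratio of 2.49 (adjusted p = 0.00906) and Ccr9 one of 4.0 from counts of 19, 6 and 23 (adjusted p = 0.0131). Ccr8 did not pass the test, with 3.83, 2.43 and 2.95 CPM (adjusted p = 0.123). The test picks up smaller differences at higher counts. Cxcr3 passed at a ratio of 1.06 from 14032 counts, and Ccr8 did not at 1.58 from 140 counts. The share of 54.7%, here and for the lists below, is over all genes tested and is not matched for counts. Library 2 held the highest CPM of Cxcr3, Cxcr6 and Ccr2, and the lowest CPM of 5 of the 6 lower genes, Ccr1 being the exception. Of all genes with 1000 or more counts, 47.1% were highest in library 2, and of all genes with 20 to 200 counts, 47.8% were lowest there. These counts were made after the values were seen.

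When the chi-square of every gene was divided by the median inflation over genes, 6.04, only Cxcr6 of the 9 stayed past the threshold (adjusted p = 0.00683), where 3.84% of genes did. Without library 2, 0 of the 7 tested genes differed between libraries 1 and 3, where 25.5% of genes did, and 1 was at an unadjusted p under 0.05. The adjusted p was then 0.0501 for Ccr2, 0.554 for Cxcr6 and 0.539 for Ccr6. Without library 1, 4 of the genes passed, where 38.9% of genes did, and without library 3, 4 passed, where 40.6% did, Cxcr3 in neither (adjusted p = 0.0504 and 0.210).

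**Figure D4:**
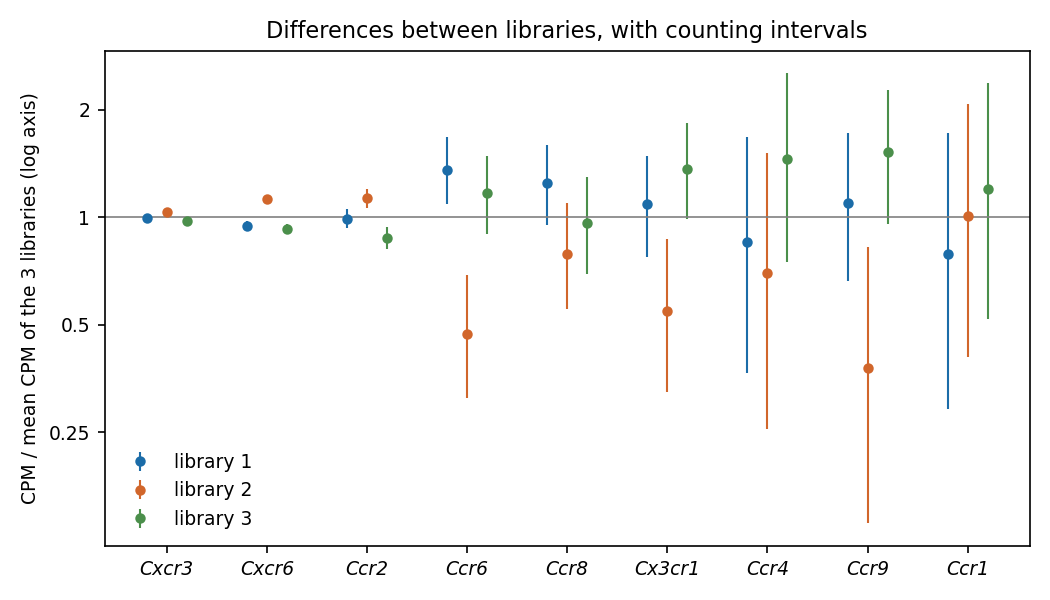
CPM of each gene in each library divided by its mean over the 3 libraries (log axis), with bars for the exact Poisson 95% interval of the count. Library 2 is above the mean for Cxcr3, Cxcr6 and Ccr2 and below it for Ccr6, Ccr8, Cx3cr1, Ccr4 and Ccr9, and the intervals of the low genes are wide.

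A second gene table was deposited for each library, with whole-number counts on the older GENCODE M4 annotation, and held 31.4%, 32.3% and 32.4% of the counts of the first. Cxcr6, Cxcr3 and Ccr2 had similar CPM (here per library total) in both, with second-to-first ratios of 1.01, 1.13 and 0.973. Ccr8 kept 63, 33 and 42 counts beside 62, 36 and 42, so that its CPM was 3.08 times as high in the second table. Ccr6 kept 71, 23 and 53 counts, a CPM ratio of 2.61. Library 2 was lowest for Ccr6 in that table too, and Ccr6 was the 1 of 6 tested genes that differed between libraries there (adjusted p = 2.84e-04), where 26.2% of all genes did.

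Ccr9 went the other way. The second table gave it 2, 1 and 1 counts, 8.33% of the 48 estimated counts and 0.256 of their CPM. The span of Ccr9 in the annotation overlaps 6 other genes, among them Lztfl1, at 15.4 ± 4.88 TPM on the opposite strand, with 0 shared exonic bases. Of its 10260 exonic bases, 1932 are shared with AC165425.1 on the opposite strand and 269 with the noncoding gene Gm17200. The strand setting of the counts is not given in the sources used here, so that reads of Ccr9 and of these genes cannot be told apart where exons are shared. Cx3cr1 shares 78 of 4505 exonic bases with the antisense gene Gm33858. Its long span also takes in Csrnp1 (299, 287 and 261 TPM) with 0 shared exonic bases.

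**Figure D5:**
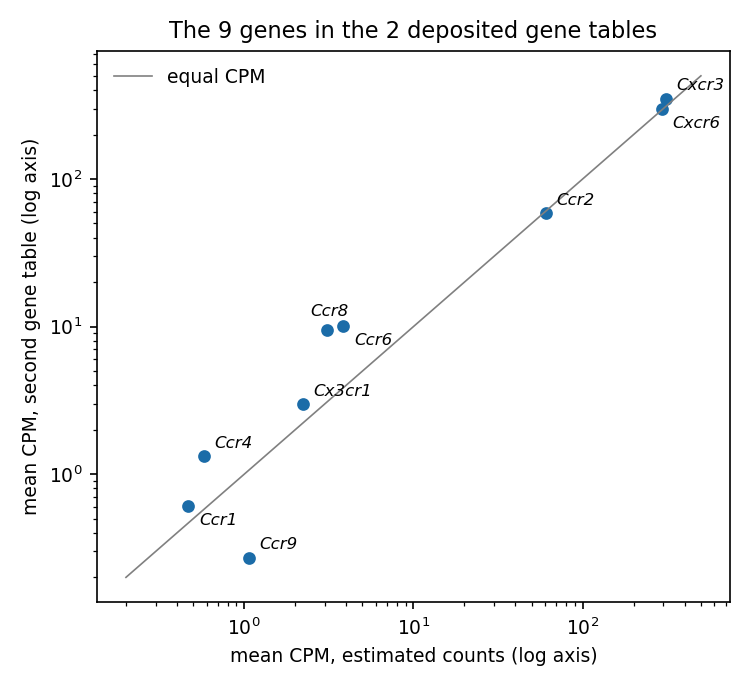
Mean CPM of the 9 genes from the estimated counts (horizontal, log axis) and from the second deposited gene table (vertical, log axis), with a line of equal CPM. Cxcr3, Cxcr6 and Ccr2 lie on or near the line, Ccr6 and Ccr8 above it and Ccr9 below it.

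Ligands of these receptors were uneven in the same cells. Of 17 ligand genes, 7 reached 1 TPM in every library and 6 had 0 counts (Ccl7, Ccl8, Ccl12, Ccl17, Ccl20 and Cxcl11). With 0 counts, as many as 3 could have been missed, which is 0.185 to 0.212 CPM by library. The highest were Ccl5 at 2974 ± 319 TPM and Ccl4 at 175 ± 7.66 TPM, inflammatory chemokines that effector T cells secrete, followed by the CXCR3 ligand Cxcl10 at 66.3 ± 6.64 TPM.

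Levels of a receptor and of its own ligands were set side by side. For Cxcr3 (302 TPM), Cxcl10 was present while Cxcl9 stood at 0.330 ± 0.276 TPM. For Cxcr6 (262 TPM), Cxcl16 stood at 2.13 ± 0.778 TPM. For Ccr2 (31.3 TPM), Ccl2 stood at 0.577 ± 0.466 TPM and Ccl7 and Ccl12 at 0 counts. For Ccr8 (4.46 TPM), the ligand Ccl1 was higher than the receptor at 17.6, 15.9 and 17.9 TPM, while Ccl8, another ligand of mouse CCR8, had 0 counts. For Cx3cr1 (0.990 TPM), Cx3cl1 stood at 0.79, 0.12 and 1.24 TPM from 5, 2 and 8 counts. Ligands above their receptor were also found for Ccr9 (0.397 TPM), with Ccl25 at 3.85, 5.91 and 7.19 TPM, and for Ccr1 (0.277 TPM), with Ccl5 and Ccl3 (39.4 ± 1.96 TPM). For Ccr6 and Ccr4, the ligand genes Ccl20 and Ccl17 had 0 counts, and Ccl22 had 8 counts, all in library 1. Of the 7 ligand genes tested, 4 differed between libraries, beside 54.7% of all genes tested.

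The machinery downstream of the receptors was present throughout. All 23 signalling genes reached 1 TPM in every library and 17 reached 100 TPM. Their median was 170 ± 17.5 TPM. Rac2, the GTPase of blood cells that drives actin at the leading edge, stood at 1500 ± 76.6 TPM, Cdc42 at 814 ± 18.3 TPM, and Rap1b, which turns on integrins, at 580 ± 55.6 TPM. Gnai2, the main inhibitory G protein of lymphocyte migration, measured 478 ± 11.3 TPM, and Dock2, the exchange factor that links chemokine receptors to Rac, 460 ± 16.0 TPM. Of the 23 genes, 15 differed between libraries, against 54.7% of all genes.

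Of 12 genes that switch receptors off or modify them, 11 reached 1 TPM and 6 reached 100 TPM in every library. The highest were Rgs1, a brake on G protein signalling, at 453 ± 12 TPM, the receptor kinase Grk6 at 287 ± 24.8 TPM, and Tpst2 at 234 ± 33.2 TPM. Tpst2 adds sulfate to tyrosines at the outer end of chemokine receptors, and its relative Tpst1 stood at 4.79 ± 0.200 TPM. The arrestin genes differed in the same way, with Arrb2 at 143 ± 6.41 and Arrb1 at 5.89 ± 2.34 TPM. Of 11 genes tested, 5 differed between libraries, with 54.7% over all genes.

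Of 14 transcription factor genes linked to these receptors, 12 reached 1 TPM in every library. The highest were Klf2, which promotes exit from tissues, at 722 ± 29.7 TPM, Batf at 672 ± 34.5 TPM and Rora at 455 ± 16.2 TPM. Tbx21, the type 1 factor known to drive Cxcr3, stood at 248 ± 23.2 TPM. Gata3, the type 2 factor, was at 42.6 ± 0.525 TPM beside Ccr8 and Ccr4 at 4.46 and 0.687 TPM. Runx3 stood at 73.6 ± 4.59 TPM. Of 12 tested, 7 differed between libraries, where 54.7% of all genes did.

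Of 12 companion homing genes, 11 reached 1 TPM and 9 reached 100 TPM in every library. Selplg, the selectin ligand that starts rolling, stood at 1281 ± 76.4 TPM, Itgb7 at 1075 ± 47.7 TPM and Cd69, a retention and activation marker, at 1066 ± 93.9 TPM. The egress receptor S1pr1 was also high, at 695 ± 38.1 TPM. The partner chains of Itgb7 differed widely. Itga4, which pairs with it in the gut-homing integrin, measured 274, 243 and 264 TPM, whereas Itgae, the chain that holds T cells to epithelium, measured 0.48, 0.30 and 1.35 TPM. Itga1, the collagen-binding chain, was at 14.0 ± 2.20 TPM. Of 12 tested, 11 differed between libraries, where the share over all genes, not matched for counts, was 54.7%.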

How the data were processed

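PolyA RNA-seq libraries were made from effector memory CD4-positive T cells of 1 mouse, as 3 technical replicates in 1 group. Per the file headers, the authors deposited for each library a gene and a transcript table on mm10 with GENCODE M21, holding expected counts (estimated counts that share ambiguous reads), TPM, FPKM and the percent of a gene's TPM taken by each transcript. The deposited second gene table gives whole counts on GENCODE M4. Of its 22457 rows, 22195 matched by identifier. Nothing in those sources gives the aligner, the quantifier or the strand setting.

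Rounded expected counts of the 3 libraries were compared in each gene of 30 or more counts (chi-square for homogeneity, TMM effective library sizes from edgeR 4.0.16), and p-values were adjusted over all genes tested (Benjamini-Hochberg, threshold 0.05). On counts simulated for 13949 genes the test called 48.0%, 66.0%, 80.0% and 100% of genes changed 1.25-, 1.5-, 2- and 3-fold, and 0.0800% of unchanged ones. These rates hold for the simulated counts only, because the chi-square of the measured libraries had a median inflation of 6.04. Every pair of libraries differed beyond counting noise, and each was kept as its own library. Rows for tRNA, spike-in and phiX (0.188% to 0.579% of counts) entered neither library sizes nor tests. Totals were 16251564, 14878641 and 14152590 counts. Poisson intervals are exact at 95%.

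The members and gene lists were chosen with earlier results of these data known. Named by rule were all 9 receptors, the 3 highest genes of each list, genes at 0 counts, genes paired with a receptor by textbook knowledge, and neighbours on the genome. Genes with a like pattern were not sought, since 3 libraries are too few. Not every gene under this rule is reported here. Sequences are from RefSeq (GRCm38.p6) start windows and GENCODE M21 transcripts, all 9 genes being matched by symbol. The other settings tried were DESeq2 1.42.0 size factors, total counts, other filters and detection limits, the second table, FPKM and posterior mean TPM, and leaving out each library. Python 3.11.15, numpy 2.4.6, scipy 1.17.1, pandas 2.3.3, biopython 1.88 and R 4.3.3 were used.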

Additional observations from a re-analysis of the deposited data

How the results depend on the processing

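The count of genes that differed between libraries was 7629 of 13949 and fell to 535 after division by the median inflation, 2693 of 10291 in the second table, and 3293 to 5057 when a library was left out. For the 9 receptors the count was 6, against 1 (Cxcr6) with the inflation removed, 1 (Ccr6) in the second table and 0 to 4 with a library left out. It was 6 with DESeq2 size factors or at least 10 counts, and 5 with total counts or no filter, where Cxcr3 missed the threshold (adjusted p = 0.0685 and 0.0606). Detection in every library held for 5 receptors at 1 TPM, 3 at 10 TPM and 7 at 0.5 TPM, and for 5 to 6 with a library left out. At 1 CPM or more in the second table it held for 7, Ccr4 among them with 6, 6 and 7 counts (mean 1.32 CPM). Of single-gene library results under other settings, 41 kept their side of the threshold and 19 lost it. Ccr9 fell below 30 counts without library 1 or 3 and then had no value. Of single-gene levels, 32 moved by less than 1 SD and 4 by more, under posterior mean TPM (Cxcr3 259, Cxcr6 224, Ccr2 26.9 and Ccr4 1.01 TPM). The share of the leading Cxcr6 form was 67.1% to 75.5% with a library left out. No paired analysis was possible because the libraries form 1 group. Depth limits the receptors below Ccr8, and the mouse is 1, so animal-to-animal spread is not measured.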
